A study of Mus musculus with 28 samples.

Results

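Expression of 10 named genes of pulmonary surfactant and the alveolar type II cell was followed in the lungs of mice that overexpress human APOBEC3B (A3B), namely Sftpa1, Sftpb, Sftpc, Sftpd, Abca3, Lamp3, Napsa, Nkx2-1, Slc34a2 and Lpcat1. These 10 members were chosen by name, and all 10 were among the 13651 genes tested in lung. A3B mice carried both the doxycycline-driven TetO-A3B-tGFP transgene and the ubiquitous CAGs-rtTA3 driver, and both the A3B and the control animals were labelled as fed doxycycline. Lungs came from 3 A3B mice (69, 70 and 74, genotype A3B + CAGS-rtTA, 10 days) and 3 controls labelled 15 days, of which control 87 had the driver alone (CAGs) and controls 88 and 91 the A3B allele alone. The study's own mouse list goes against these labels: it gives no doxycycline for controls 88 and 91, nor for controls 11 and 92 of the livers, and another time than the label for control 87. Genotype, exposure to doxycycline and its duration therefore cannot be told apart in this comparison.

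Livers and pancreases served as background. The table that holds the lungs also holds livers of 3 A3B mice (23, 28 and 70, labelled 14, 14 and 10 days) and 3 controls (91 and 92 with the A3B allele alone, and 11 with a label that names both transgenes). A separate set, quantified with kallisto, holds livers of 6 A3B and 2 control mice and pancreases of 6 A3B and 2 control mice, all labelled 10 days. Some genotype labels of the pancreases go against their titles, and titles set the groups here. The study's text describes the control pair of this set as given no doxycycline, against the labels, so the drug and the genotype cannot be told apart here either. A3B mice started doxycycline as young adults. All samples were whole tissue, in which fewer type II cells and less RNA per type II cell cannot be told apart.

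Alveolar type II cells line the alveolus, make surfactant and act as progenitors of the flat type I cells. Surfactant is a lipid film with 4 proteins. The small hydrophobic proteins SP-B and SP-C, from Sftpb and Sftpc, spread the film, whereas SP-A and SP-D, from Sftpa1 and Sftpd, are soluble collectins that bind microbes and help regulate the surfactant pool. Lipid and hydrophobic protein are packed in lamellar bodies, where ABCA3 pumps phospholipid and LAMP3 is a membrane protein. LPCAT1 makes the dipalmitoylated phosphatidylcholine of surfactant, napsin A (Napsa) is a protease that helps process pro-SP-B, the phosphate transporter SLC34A2 takes up phosphate released from spent surfactant, and NKX2-1 is the transcription factor that drives most of these genes.

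Samples were first checked against their labels. The transgene stood at 90.6, 281 and 115 TPM (transcripts relative to all transcripts of a library, a level scaled for gene length and library size) in A3B lungs 69, 70 and 74 and at 0.435 to 0.526 TPM in control lungs. In the livers of the same table it stood at 705 to 1705 TPM in A3B mice and 0.0928 to 0.144 TPM in controls. The kallisto set was not quantified for the human transgene, so it has no such check here. The 10 members summed to 13946 to 16618 TPM in controls and 16092 to 17603 TPM in A3B lungs, against 250 to 1924 TPM in the livers. Nearly all of the liver sum was Abca3, at 234 to 1914 TPM. Its mean was 1726 TPM in control lungs and 1329 TPM in control livers, so in this table its level does not set lung apart from liver. Nkx2-1 was listed at 0 in all 6 of these livers. A list of 12 hepatocyte genes summed to 832 and 1024 TPM in A3B lungs 70 and 74 and to 1160 TPM in control lung 88, but to 4.27 to 95.7 TPM in the other lungs, so this signal did not follow the groups. The Y-linked gene Ddx3y read 9.09 TPM in control liver 11 and at most 0.0239 TPM in the other 11 samples of this table.

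Promoters of the members are shown because NKX2-1 is the factor best known to drive them and because the Sftpa1 values of A3B and control livers lay apart. RefSeq promoters (GRCm38.p6, 250 bases before to 50 after the RefSeq start) were found for 7 members, Abca3, Lamp3, Lpcat1, Nkx2-1, Sftpa1, Sftpb and Slc34a2, and were searched on both strands for 3 motifs. The Slc34a2 window, chr5:53049103-53049402, lies inside the gene span given below (chr5:53038081-53071664) and not at its first base. The motif CTCAAG, a core recognised by NKX2-1, was present in Sftpa1 and in Sftpb and is present in 15.9% of all 32851 promoters. For FOXA factors, TGTTTAC was present in Lamp3 and is present in 3.65% of all promoters. For the GATA family, AGATAA was found in none of the 7 and is found in 11.2% of all. No matches overlapped. Matches are in capitals in the sequences below, which lie at chr14:41131538-41131837 on the plus strand (Sftpa1), chr6:72304360-72304659 on the plus strand (Sftpb) and chr16:19706316-19706615 on the minus strand (Lamp3).
Sftpa1: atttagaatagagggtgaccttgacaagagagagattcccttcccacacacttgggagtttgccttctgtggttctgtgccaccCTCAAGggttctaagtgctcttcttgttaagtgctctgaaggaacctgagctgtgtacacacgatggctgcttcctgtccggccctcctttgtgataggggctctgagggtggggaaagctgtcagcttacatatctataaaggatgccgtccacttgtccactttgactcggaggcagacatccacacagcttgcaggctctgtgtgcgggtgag
Sftpb: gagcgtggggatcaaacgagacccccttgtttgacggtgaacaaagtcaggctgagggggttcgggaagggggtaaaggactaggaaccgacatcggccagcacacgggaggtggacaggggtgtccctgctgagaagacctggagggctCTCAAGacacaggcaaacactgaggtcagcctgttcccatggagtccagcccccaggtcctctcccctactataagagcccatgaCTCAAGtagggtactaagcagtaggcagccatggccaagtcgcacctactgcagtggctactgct
Lamp3: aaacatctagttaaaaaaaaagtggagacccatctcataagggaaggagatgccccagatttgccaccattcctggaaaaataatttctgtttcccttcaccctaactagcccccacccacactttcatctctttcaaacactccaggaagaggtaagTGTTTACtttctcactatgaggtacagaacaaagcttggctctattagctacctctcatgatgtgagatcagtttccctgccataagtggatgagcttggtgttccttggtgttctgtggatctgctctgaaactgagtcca

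The members held ordered levels in control lungs. Sftpb was highest at 6390 ± 516 TPM (SD, n = 3), followed by Slc34a2 at 2666 ± 384 TPM, and these did not overlap each other or the next gene. Sftpc (1833 ± 54.1 TPM), Abca3 (1726 ± 367 TPM) and Sftpa1 (1630 ± 138 TPM) came next, and neighbours among these 3 overlapped in range. Lamp3 stood at 391 ± 26.3 TPM. Nkx2-1 (192 ± 5.53 TPM), Sftpd (183 ± 3.99 TPM) and Napsa (175 ± 11.7 TPM) were close together, Nkx2-1 just above the range of Sftpd and the ranges of Sftpd and Napsa overlapping, and Lpcat1 was lowest at 33.0 ± 5.61 TPM. These levels carry a limit of the table, since its column names refer to deduplicated alignments, and removing duplicate reads can hold down a short, very abundant transcript. In livers, Alb read 986 to 2037 TPM in this table and 19353 to 107806 TPM in the kallisto set, while Abca3 read 234 to 1914 TPM here and 8.40 to 58.0 TPM there, so levels were not compared between the tables. How far duplicate removal altered the members' values was not tested.

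**Figure D1:**
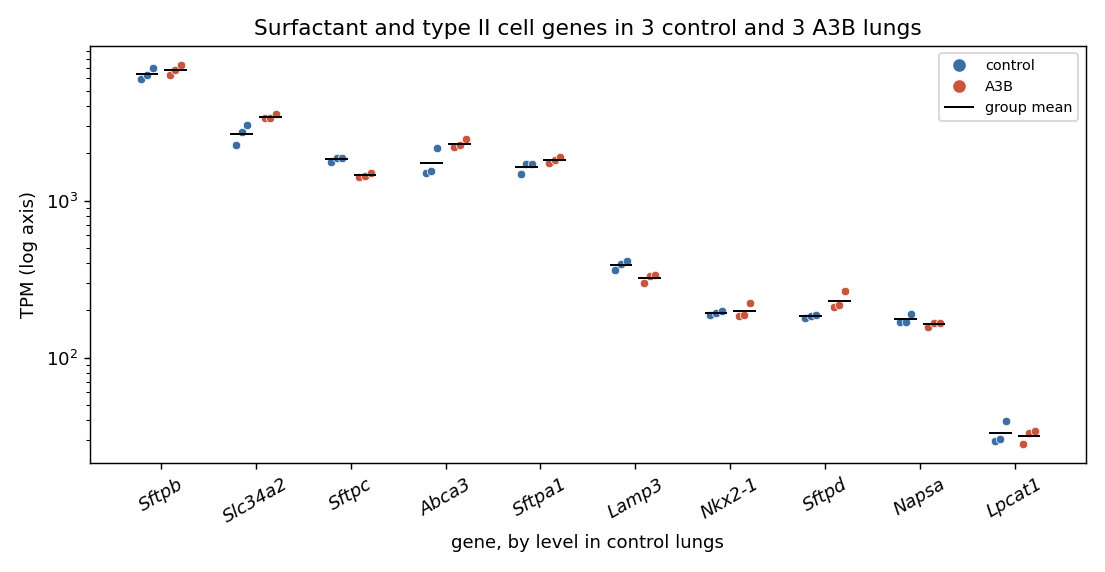
TPM of the 10 members (log axis) in each of 3 control (blue) and 3 A3B (red) lungs, with the group mean as a line, ordered by level in control lungs. The order of magnitude of every member is kept between groups, Sftpc, Lamp3 and Napsa sit lower in all A3B lungs, and Slc34a2, Abca3, Sftpa1 and Sftpd sit higher.

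To ask how the surfactant programme stood in lungs that express A3B, the 3 A3B lungs were compared with the 3 control lungs. All 10 members stayed within a difference of 0.5 on the log2(TPM + 1) scale in either direction, as did 68.9% of all genes tested. Of the members 6 lay above and 4 below zero, and their median difference was 0.06 against -0.06 for all genes tested. One member, Sftpc, passed the test, and it was lower in A3B lungs. Across the transcriptome 36.8% of genes passed the same test (16.1% higher and 20.8% lower). Whether members were called at another rate than genes at large was not tested. The median absolute difference was 0.21 for the members and 0.33 for all genes.

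Among the proteins of the surfactant film, Sftpc (chr14:70520949-70524081, minus strand) read 1855, 1772 and 1873 TPM in control lungs 87, 88 and 91 and 1422, 1440 and 1500 TPM in A3B lungs 69, 70 and 74. All 3 A3B values lay below all 3 control values, and the gap was larger than the spread inside either group. The A3B mean was 20.7% lower in TPM (log2 difference -0.33 ± 0.09 SE, limma adjusted p = 0.0236). The call was narrow: adjusted p rose to 0.0644 when libraries were rescaled by median ratios and to 0.321 in a fit over lung and liver together, and leaving out any lung except control 88 (A3B 69, 70 or 74, control 87 or 91) moved it to between 0.0508 and 0.0953, with the difference between -0.32 and -0.36 when 1 lung was left out and at -0.27 with median-ratio rescaling.

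Sftpb (chr6:72304610-72314371, plus strand) read 6310, 6941 and 5918 TPM in control lungs 87, 88 and 91 and 7308, 6741 and 6312 TPM in A3B lungs 69, 70 and 74. The groups overlapped, and the difference was 0.09 ± 0.11 SE on the log2 scale (limma adjusted p = 0.562, interval about -0.13 to 0.30). As a ratio within each lung, Sftpc was 0.294, 0.255 and 0.317 of Sftpb in control lungs and 0.195, 0.214 and 0.238 of Sftpb in A3B lungs (exact permutation p = 0.1, the smallest that 3 against 3 lungs allow).

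Both collectin genes, which lie near each other on chromosome 14, sat higher in every A3B lung, although neither passed the test. Sftpd (chr14:41172214-41185149, minus strand) read 179, 187 and 183 TPM in control lungs and 266, 215 and 209 TPM in A3B lungs, the highest value in mouse 69. The mean was 25.9% higher (log2 difference 0.32 ± 0.11 SE, limma adjusted p = 0.0648). Sftpa1 (chr14:41131782-41136452, plus strand) read 1707, 1712 and 1471 TPM in controls and 1889, 1799 and 1726 TPM in A3B lungs, a log2 difference of 0.15 ± 0.10 SE (limma adjusted p = 0.287). The A3B and control ranges of Sftpa1 were separated by less than the spread within either group.

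Neither of the lamellar body genes passed the test. Abca3 (chr17:24351950-24410201, plus strand), the phospholipid pump, read 1531, 2150 and 1498 TPM in control lungs 87, 88 and 91 and 2461, 2188 and 2256 TPM in A3B lungs 69, 70 and 74. The A3B values were all higher, by 0.43 ± 0.16 SE on the log2 scale (limma adjusted p = 0.0709), but control 88 came close to them. Control lung 88 and A3B lungs 70 and 74 are also those with the hepatocyte signal given above, and Abca3 is the member with a high level in the livers of this table. The part of that signal in the Abca3 values was not tested. Without control 88 the difference was 0.60 and adjusted p was 0.0115.

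Lamp3 (chr16:19653378-19706375, minus strand) lay below the control range in all A3B lungs, with 396, 415 and 363 TPM in controls and 299, 336 and 333 TPM in A3B lungs. Its difference was -0.28 ± 0.10 SE (limma adjusted p = 0.0649). Lamp3 also marks mature dendritic cells, and of 10 tested genes of that list Zbtb46 rose (0.46 ± 0.10 SE, limma adjusted p = 0.0136) and Traf1 fell (-0.88 ± 0.18 SE, limma adjusted p = 0.0120). The list summed to 462 to 514 TPM in controls and 509 to 612 TPM in A3B lungs, and its part in Lamp3 was not tested. The Zbtb46 call was lost without A3B 70.

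Of the enzymes and the transporter, Slc34a2 (chr5:53038081-53071664, plus strand) read 2728, 3015 and 2254 TPM in controls and 3537, 3330 and 3372 TPM in A3B lungs. The groups did not overlap, and the mean was 28.0% higher in A3B lungs (log2 difference 0.37 ± 0.13 SE, limma adjusted p = 0.0619). Slc34a2 passed the threshold under quantile normalization (adjusted p = 0.0438), under median-ratio scaling (adjusted p = 0.0348) and without control 88 (adjusted p = 0.0294). Napsa (chr7:44572380-44586862, plus strand) read 169, 189 and 169 TPM in controls and 165, 156 and 167 TPM in A3B lungs, a difference of -0.11 ± 0.09 SE (limma adjusted p = 0.376). Napsa values of A3B lung 74 and control 87 lay only a little apart, at 167 and 168 TPM. Lpcat1 (chr13:73467197-73516422, plus strand), which completes the main surfactant lipid, read 29.5 to 39.5 TPM in controls and 28.3 to 34.1 TPM in A3B lungs, with overlapping groups (log2 difference -0.04 ± 0.14 SE, limma adjusted p = 0.824).

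The regulator Nkx2-1 (chr12:56531958-56536908, minus strand) overlapped as well. It read 192, 198 and 187 TPM in controls and 222, 188 and 184 TPM in A3B lungs, a log2 difference of 0.04 ± 0.10 SE with an interval of about -0.16 to 0.24 (limma adjusted p = 0.790). Sftpc relative to Nkx2-1 in the same lung was 9.67, 8.95 and 10.0 in controls and 6.40, 7.67 and 8.13 in A3B lungs, without overlap.

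**Figure D2:**
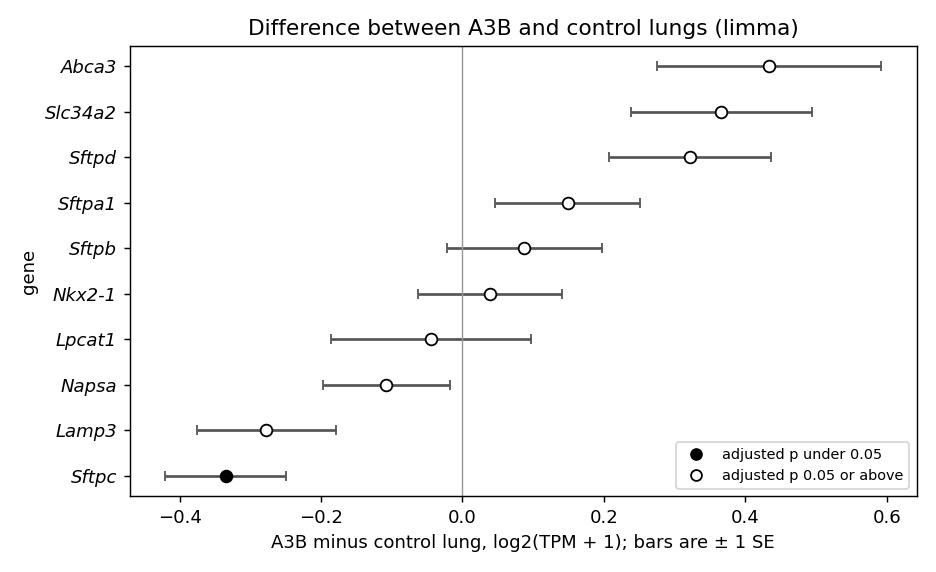
Difference between A3B and control lungs for each member on the log2(TPM + 1) scale, with bars of 1 standard error. The filled point, Sftpc at -0.33, is the 1 member with an adjusted p under 0.05, and the open points run from -0.28 (Lamp3) to 0.43 (Abca3).

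In all, 7 of the 10 members had groups that did not overlap, 4 higher and 3 lower in A3B lungs, beside 53.9% of all genes tested (23.3% higher and 30.6% lower). An exact permutation test of 3 against 3 lungs cannot give a two-sided p below 0.1, and it gave 0.1 for each of these 7. An unadjusted limma p under 0.05 was found for 5 members, beside 48.8% of all genes.

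Ratios inside a lung do not depend on how libraries are scaled. They repeat in part the separation of the single genes given above, and of the 45 pairs of members 28 had ratios that did not overlap between the groups and 17 had ratios that did, among them Sftpc to Lamp3. How often pairs of genes outside the members separate was not computed. The Slc34a2 to Sftpc ratio went from 1.47, 1.70 and 1.20 in controls to 2.49, 2.31 and 2.25 in A3B lungs, a mean log2 difference of 0.70. The Sftpd to Sftpc ratio went from 0.0963 to 0.105 in controls to 0.140 to 0.187 in A3B lungs, and the Abca3 to Lamp3 ratio from 3.87 to 5.18 in controls to 6.51 to 8.24 in A3B lungs. Each of these ratios gave the smallest p that 3 against 3 lungs allow in the exact permutation test, 0.1, and they were picked after their values were seen.

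**Figure D3:**
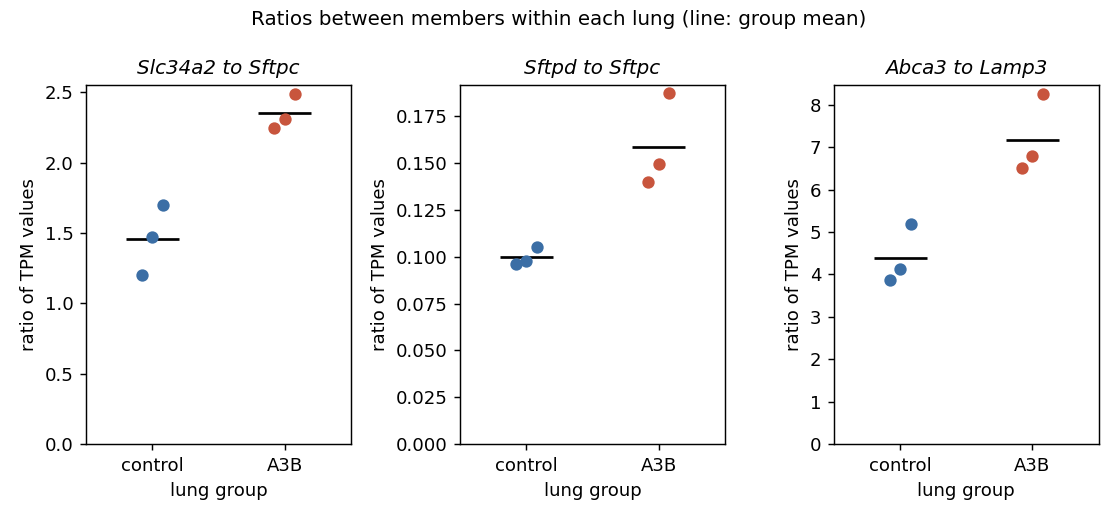
Ratio of TPM values of Slc34a2 to Sftpc, Sftpd to Sftpc and Abca3 to Lamp3 in each of 3 control (blue) and 3 A3B (red) lungs, with the group mean as a line and axes from 0. The A3B lungs lie above the control lungs in each panel, for example 2.25 to 2.49 against 1.20 to 1.70 for Slc34a2 to Sftpc.

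The other genes of type II cells were counted on lists written from general knowledge. Of 15 tested further type II markers 6 passed (40.0%, near the 36.8% of all genes), 1 higher and 5 lower, with a median difference of -0.38 against -0.06 for all genes, and the list summed to 5908 to 7060 TPM in controls and 4489 to 4615 TPM in A3B lungs. Lyz2, lysozyme of type II cells and macrophages, fell from 1005 ± 47.9 to 704 ± 14.6 TPM (limma adjusted p = 0.00729). Bex2 fell from 232 ± 11.8 to 95.9 ± 18.8 TPM (limma adjusted p = 0.00358), and Cd74, the MHC class II invariant chain, fell from 914 ± 157 to 527 ± 108 TPM (limma adjusted p = 0.0188). Mfsd2a, a transporter of lysophospholipids, rose from 13.6 ± 2.40 to 30.5 ± 10.5 TPM (limma adjusted p = 0.0218). The Cd74 call was lost without A3B 69, A3B 74 or control 91 and the Mfsd2a call without A3B 69, control 88 or control 91.

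For synthesis of surfactant lipid and building of lamellar bodies, 5 of 26 tested genes passed (19.2%, beside 36.8% of all genes), 3 higher and 2 lower, with a median of 0.11. Lpin1, a phosphatidate phosphatase, rose from 8.14 ± 1.43 to 51.2 ± 12.1 TPM, a log2 difference of 2.50 ± 0.19 SE (limma adjusted p = 0.00173). Abca1, which exports cholesterol and phospholipid, rose by 1.02 ± 0.28 SE (limma adjusted p = 0.0305), and Chka, a choline kinase at the start of phosphatidylcholine synthesis, by 0.44 ± 0.10 SE (limma adjusted p = 0.0185). The fatty acid binding protein Fabp5 fell by 0.46 (limma adjusted p = 0.0136) and the phospholipid transfer protein Pltp fell by 0.44 (limma adjusted p = 0.0306). All 5 are made by other lung cells too. The Abca1 call was lost in 7 of 14 alternatives, among them leaving out any lung except control 87, Chka lost its call without A3B 69 or 70, and Pltp without A3B 69, A3B 74, control 87 or control 88.

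For sensing and clearing the surfactant pool, 7 of 13 tested genes passed (53.8%, beside 36.8% of all genes), 5 higher and 2 lower, with a median of 0.12. Adgrf5, a receptor of type II cells that restrains the surfactant pool, rose from 767 ± 38.5 to 1128 ± 108 TPM (limma adjusted p = 0.00983), and it is also abundant in lung endothelium. Csf2rb, a chain of the GM-CSF receptor that macrophages need to clear surfactant, rose from 22.9 ± 4.81 to 36.9 ± 3.33 TPM (limma adjusted p = 0.0187). Marco, a scavenger receptor of macrophages, rose from 2.77 ± 0.917 to 8.76 ± 1.11 TPM (limma adjusted p = 0.00535). Pla2g15, the lysosomal phospholipase of alveolar macrophages, fell from 21.2 ± 4.54 to 12.9 ± 2.01 TPM (limma adjusted p = 0.0260), and Calr fell from 9.60 ± 1.73 to 6.52 ± 0.492 TPM (limma adjusted p = 0.0318). Leaving out A3B 69 or 70 ended the calls of Csf2rb, Pla2g15 and Calr, leaving out control 87 or 88 those of Pla2g15 and Calr, and leaving out A3B 74 that of Calr.

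Among 21 tested transcription factors and signalling genes of the alveolar epithelium, 5 rose and 1 fell (28.6% called, beside 36.8% of all genes), with a list median of 0.12. Cebpd rose from 596 ± 103 to 1107 ± 209 TPM (limma adjusted p = 0.0115), Stat3 from 16.4 ± 2.45 to 28.0 ± 3.73 TPM (limma adjusted p = 0.0112) and Klf5 from 21.6 ± 5.65 to 38.7 ± 4.71 TPM (limma adjusted p = 0.0183), while Id2 fell from 448 ± 41.0 to 333 ± 19.8 TPM (limma adjusted p = 0.0205). The calls of Klf5 and Id2 were lost without A3B 69 or 70. Of 18 genes of the transitional state between type II and type I cells 3 passed (16.7%), with a median of 0.13. The cell cycle inhibitor Cdkn1a rose from 3.85 ± 0.567 to 33.6 ± 5.80 TPM (limma adjusted p = 0.00140), whereas Tnip3 fell from 2.60 ± 0.496 to 1.06 ± 0.220 TPM (limma adjusted p = 0.00857) and Lgals3 from 5.15 ± 0.291 to 3.80 ± 0.235 TPM (limma adjusted p = 0.0268). The Lgals3 call was lost in 8 of 13 alternatives, among them both rescalings and leaving out any lung except control 88.

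Markers of neighbouring cells were counted in the same way, and their shares called are to be read beside the 36.8% of all genes. The 16 type I genes summed to 6920 to 8185 TPM in controls and 6358 to 6455 TPM in A3B lungs, with 6 called (37.5%), 1 higher (Col4a3, limma adjusted p = 0.0498, a call lost in 10 of 14 alternatives, among them leaving out any lung except control 88) and 5 lower, among them Cldn18 (-1.11), Igfbp2 (-1.11) and Akap5 (-0.67). The 12 macrophage genes summed to 719 to 1336 TPM in controls and 1560 to 1866 TPM in A3B lungs, with 3 called (25.0%), all higher (Marco, Mrc1 and Krt79). The Krt79 call was lost without any 1 of the 6 lungs and the Mrc1 call without any 1 A3B lung. The 12 endothelial genes had a median difference of -0.21, with 7 called (58.3%), 2 higher (Ednrb and Cldn5) and 5 lower (Car4, Plvap and Emcn among them). Their sum was 4732 to 5174 TPM in controls and 5484 to 6014 TPM in A3B lungs, and without Cldn5 it was 1868 to 2109 TPM in controls and 1398 to 1745 TPM in A3B lungs. Cldn5 lost its call without A3B 69, and Emcn without A3B 69, A3B 74, control 87 or control 91. Club cell genes summed to 17388 to 19108 TPM in controls and 14742 to 17052 TPM in A3B lungs, with 1 called of 10 tested (10.0%), Scgb3a2 (-0.70), and 3 of 11 tested ciliated cell genes (Tppp3, Sntn and Dynlrb2, 27.3%) were lower. Fibroblast and muscle genes had 1 higher (Pdgfra) and 3 lower (Tcf21, Tagln and Inmt) of 12 (33.3%), and neutrophil genes 2 higher (Mmp8 and Ngp) of 9 tested (22.2%). Mmp8 lost its call without A3B 70, control 87 or control 91, and Ngp without A3B 69, A3B 70, control 88 or control 91. Lymphocyte, cardiac and hepatocyte genes gave no call by limma, with 0, 2 and 0 genes at an unadjusted p under 0.05, beside 48.8% of all genes (Cd79a and Cd79b, Myh6 and Myl4, and Fgb and Alb had the highest levels of their lists). Cd79b and Myl4 each passed in 1 of 14 alternatives, and the Cd79b difference ran from -1.93 to -0.87 when 1 lung was left out. Thyroid markers, looked at because NKX2-1 is also a thyroid factor, summed to 2.76 to 3.87 TPM in controls and 5.85 to 7.10 TPM in A3B lungs, and Tg was the 1 of them tested (0.82, limma adjusted p = 0.00909). The part of these cell types in the members' values was not tested.

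The 5 other genes whose pattern over the 6 lungs was most like the mean of the members, out of 10078 genes compared, were Tuft1 (Pearson r = 0.98), Trappc9 (0.97), Pqlc2 (0.97), Snx19 (0.97) and Azin1 (0.97). These coefficients describe 6 lungs of 2 groups that share a table and its scaling.

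Livers of the same table were the background tissue, where most members were near 0. The filter of a mean of 1 TPM left 5 members, Sftpa1, Sftpd, Abca3, Napsa and Slc34a2. In this tissue 7.93% of genes tested were called (6.07% higher). Sftpa1 read 0.813, 0.283 and 0.442 TPM in control livers 11, 91 and 92 and 18.2, 3.17 and 43.9 TPM in A3B livers 23, 28 and 70. Every A3B liver lay above every control, by 3.36 in the mean on the log2(TPM + 1) scale, and by 2.58 to 4.29 without each liver in turn. Sftpa1 and Napsa, both under 1 TPM in all control livers, passed the filter only through the A3B livers, so no test behind that filter is used for them. With no filter, an alternative chosen after seeing the data, Sftpa1 did not pass (limma adjusted p = 0.109), and 0.282% of genes did.

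In the kallisto livers Sftpa1 read 1.30 and 0.762 TPM in controls 45 and 168. In A3B livers 44, 137, 49, 125, 48 and 153 it read 24.4, 21.7, 2.73, 3.49, 22.1 and 36.9 TPM, on 211 to 2683 estimated counts. All 6 A3B livers lay above both controls. The edgeR difference was 3.63 ± 1.07 SE in log2 counts (adjusted p = 0.0897), which did not pass, and DESeq2 gave an adjusted p of 0.000967. By edgeR Sftpa1 passed in 1 alternative, without A3B 49, and its difference ran from 3.36 to 3.79 when 1 liver was left out. None of the 8 members tested was called by edgeR in this set, where 3.66% of genes were. An unadjusted edgeR p under 0.05 was found for 2 of these 8, beside 3985 of all 17365 genes. DESeq2, which called 11.9% of all genes, called 2 of 9 members, Sftpa1 and Slc34a2.

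The hydrophobic surfactant protein genes stayed low in liver. In A3B livers of the first table Sftpc stood at 0.120 to 0.274 TPM and Sftpb at 0.252 to 0.845 TPM, and the lung-restricted secreted genes Cxcl15 and Scgb3a2 at no more than 0.0414 and 0.00468 TPM. The airway gene Scgb1a1 read 0.748, 1.21 and 2.19 TPM in these A3B livers 23, 28 and 70 and 0.147, 1.40 and 10.8 TPM in control livers 11, 91 and 92. In A3B livers of the kallisto set Sftpc stood at 0.110 to 1.33 TPM and Sftpb at 0 to 0.297 TPM. In A3B lungs, for comparison, Sftpb read 6312 to 7308 TPM and Sftpc 1422 to 1500 TPM beside 1726 to 1889 TPM of Sftpa1. Ager, a type I cell gene, read 0.392 to 2.15 TPM in A3B and 0.130 to 0.328 TPM in control livers of the first table, against 623 TPM or more in the lungs. The part of lung RNA in the Sftpa1 values was not tested.

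The remaining liver members gave no call by limma or edgeR. Napsa, at 0.445 to 0.726 TPM in controls and 1.02 to 3.33 TPM in A3B livers of the first table and 0.874 to 0.924 against 1.28 to 5.99 TPM in the kallisto set, did not overlap between groups in either set (limma adjusted p = 0.229 with no filter and edgeR adjusted p = 0.287). Of all genes tested in the same sets, 28.5% and 24.3% lay higher in all A3B livers. Slc34a2 read 6.34 to 8.81 TPM in controls and 9.77, 7.82 and 41.5 TPM in A3B livers 23, 28 and 70, overlapping. In the kallisto livers it read 0.743 and 0.294 TPM in controls and 1.07 to 26.9 TPM in A3B mice, the highest in mouse 44 (edgeR log2 difference 3.18 ± 1.26 SE, adjusted p = 0.173, DESeq2 adjusted p = 0.0181). The other A3B livers read at most 3.15 TPM, and the edgeR difference ran from 1.90 to 3.76 when 1 liver was left out. Sftpd read 0.824 to 1.45 TPM over the 6 livers of the first table and overlapped. Abca3, which read 1914, 697 and 1377 TPM in controls 11, 91 and 92 and 434, 234 and 886 TPM in A3B livers 23, 28 and 70, had a difference of -1.45 ± 0.57 SE (limma adjusted p = 0.131), and in the kallisto livers -0.79 ± 0.67 SE (edgeR adjusted p = 0.506).

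**Figure D4:**
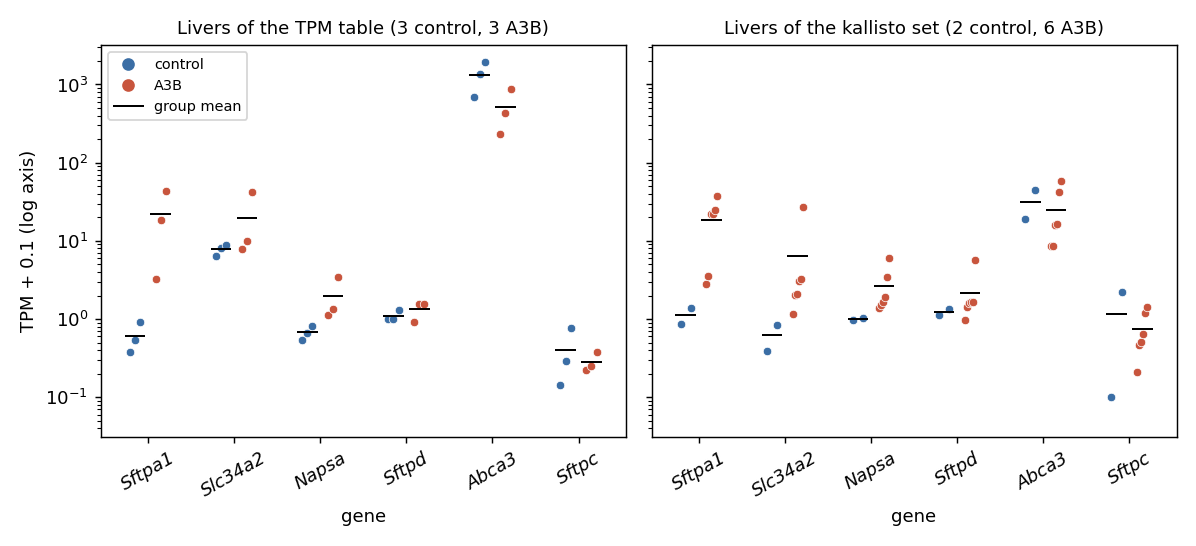
TPM + 0.1 (log axis) of 6 members in livers of the TPM table (3 control, 3 A3B) and of the kallisto set (2 control, 6 A3B), each liver a point and each group mean a line. Sftpa1 lies above all controls in all A3B livers of both sets, 3.17 to 43.9 TPM and 2.73 to 36.9 TPM, while Sftpc stays at or below 2.10 TPM.

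Whether the A3B effect differed between lung and liver was tested as an interaction over the 12 samples of the table. Sftpa1 was the 1 member that passed: its effect in lung was lower than its effect in liver by 3.21 ± 0.90 SE on the log2 scale (limma adjusted p = 0.0454), beside 10.7% of genes called. Its lung difference was 0.15, so the value comes almost entirely from the liver difference of 3.36. The fit takes the same variance for both tissues, although A3B livers spread more (3.17 to 43.9 TPM) than A3B lungs (1726 to 1889 TPM). Its p-value therefore does not measure the spread of the livers alone. The difference for Abca3 was 1.88 ± 0.65 SE (limma adjusted p = 0.0859) and that for Napsa -0.88 ± 0.36 SE (limma adjusted p = 0.135). Mice 70 and 91 gave both tissues. With the mouse as a block, 2607 in place of 1448 genes were called, and Sftpa1 remained the member called (-3.67, limma adjusted p = 0.0111). Leaving out any 1 lung, A3B liver 23, or control liver 91 or 92 moved adjusted p of Sftpa1 to between 0.0753 and 0.103.

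In pancreas the member that rose most was Sftpd, a collectin also made by epithelia outside the lung. It read 0.242 and 0.179 TPM in controls 45 and 168, on 23 and 17 estimated counts. In A3B pancreases 44, 53, 49, 125, 137 and 153 it read 30.7, 39.8, 32.1, 18.3, 25.7 and 12.1 TPM, on 1016 to 3673 estimated counts. The groups were far apart, and the edgeR difference was 4.56 ± 0.61 SE in log2 counts (adjusted p = 0.000675). The call held without each pancreas, with adjusted p between 0.000637 and 0.00281 and the difference between 3.88 and 5.52. Abca3 also rose, from 1.09 and 2.71 TPM to 12.6 to 32.1 TPM (edgeR log2 difference 1.49 ± 0.39 SE, adjusted p = 0.0150). Without control 45 or control 168 its adjusted p was 0.0894 or 0.0541.

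Of the 9 members tested in pancreas 2 were called, both higher, beside 31.9% of all genes (17% higher). TPM values in this tissue carry a shift shared by most genes, since 70.8% of genes tested lay higher in TPM in all A3B pancreases than in both controls. TMM factors were 0.210 and 0.443 in controls and 1.30 to 1.79 in A3B samples, and scaling by library totals alone moved the median difference of all genes from 0.09 to 2.29 and the members called from 2 to 6 of 9, beside 71.6% of all genes called under that scaling. Napsa (0.271 and 6.09 TPM in controls, 10.6 to 31.9 TPM in A3B), Lpcat1 (1.03 and 5.14 TPM, then 8.96 to 13.9 TPM) and Slc34a2 (0.0146 and 0.0846 TPM, then 0.253 to 1.35 TPM) lay higher in all A3B samples in TPM. By edgeR their differences were 0.98 ± 0.67 SE (adjusted p = 0.288), 0.20 ± 0.23 SE (adjusted p = 0.552) and 2.10 ± 0.81 SE (adjusted p = 0.0716). DESeq2 called 3 of 10 members, beside 32.7% of all genes, and Slc34a2 was among them (adjusted p = 0.0170). By edgeR Slc34a2 also passed without A3B 125 or 137 (adjusted p = 0.0489 and 0.0498) and with library totals (adjusted p = 0.00425). With library totals Napsa (edgeR adjusted p = 0.0207) and Lpcat1 (edgeR adjusted p = 0.00151) passed too. The Napsa difference ran from 0.17 to 3.34 when 1 pancreas was left out.

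Sftpc in pancreas followed single animals. It read 0.945 and 0.110 TPM in controls 45 and 168, 1.51 to 4.16 TPM in A3B pancreases 44, 49, 125 and 137, and 26.9 and 40.6 TPM in A3B pancreases 53 and 153. The edgeR difference was 1.90 ± 1.68 SE (adjusted p = 0.419), and without pancreases 53 and 153 it was -0.28 (adjusted p = 0.861). The same pair had the most Scgb1a1, the main club cell secretory gene of airways, at 32.5 and 49.8 TPM against 0.941 to 10.8 TPM in the other A3B pancreases. The type I cell gene Ager did not follow the pair, with 1.83 and 4.04 TPM in pancreases 53 and 153, 7.89 TPM in pancreas 125 and 0.609 to 1.84 TPM in the other A3B pancreases. The pair also had the most Lamp3 (34 and 31 estimated counts against 0 to 3). Cxcl15 and Scgb3a2 were highest in the pair as well, though below 1 TPM. Cxcl15 read 0.525 and 0.442 TPM in pancreases 53 and 153, against at most 0.149 TPM in the others. Scgb3a2 read 0.381 and 0.732 TPM there, against at most 0.169 TPM in the others. The part of lung RNA in these values was not tested. Sftpa1 and Sftpb were also highest in pancreas 153, at 6.45 and 0.753 TPM, with edgeR differences over the group of -0.07 ± 1.22 SE and -1.21 ± 1.86 SE (adjusted p = 0.970 and 0.649). For Sftpd, pancreas 53 had the highest A3B value and pancreas 153 the lowest, and without both its difference was 4.55 (adjusted p = 0.00203). Nkx2-1 had 10 and 31 estimated counts in pancreases 53 and 153, 0 to 4 in the other A3B pancreases and 0 in both controls. It did not pass the filter.

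**Figure D5:**
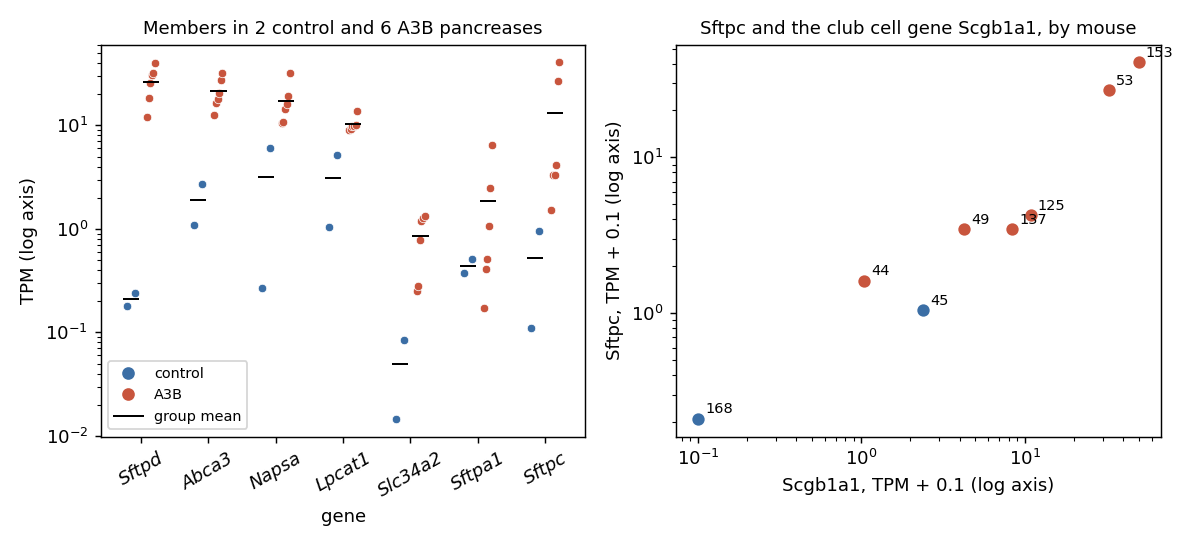
Left, TPM (log axis) of 7 members in 2 control (blue) and 6 A3B (red) pancreases with group means. Right, Sftpc against Scgb1a1 in the same pancreases (TPM + 0.1, log axes, numbered by mouse). Sftpd is at 12.1 TPM or more in all A3B pancreases against at most 0.242 TPM in controls, and mice 53 and 153 are highest for both Sftpc and Scgb1a1.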

How the data were processed

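RNA-seq was made from whole lung, liver and pancreas with a stranded Illumina kit. For the lungs and 6 livers the authors deposited TPM per gene from reads aligned with STAR to mm10, from alignments that the column names call deduplicated, and their depth is unknown. For 8 livers and 8 pancreases the authors deposited kallisto expected counts and TPM per transcript. Here 116640 of 119414 transcripts were assigned to genes with GENCODE M21, and expected counts were summed and rounded (65161064 to 118976013 per sample). TPM values were tested with limma 3.58.1 on log2(TPM + 1), with trend and robust variances and a mean of at least 1 TPM. Count sums were tested with edgeR 4.0.16 (TMM, filterByExpr, quasi-likelihood), with DESeq2 1.42.0 as an alternative. Fits covered all genes, were checked on simulated data, and p-values were adjusted by Benjamini-Hochberg over all genes (threshold 0.05). Differences in TPM fits are on the log2(TPM + 1) scale, which understates change in low genes. Intervals are the difference ± 1.96 SE. Replicates are separately numbered mice.

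Members and lists were chosen with earlier results of these data known. From each list up to 3 called genes per direction with the smallest lung p were named, or the 2 most abundant where none was called. Genes alike in pattern were the 5 with the highest correlation among those with a mean of at least 5 TPM. Mice 70 and 91 gave lung and liver, and their deviations from the group means correlated at 0.22 and 0.29 across genes. Alternatives changed the pseudocount, filter, scaling, model or tool and left out each sample.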

Additional observations from a re-analysis of the deposited data

Results flagged for a closer look

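Sftpa1 differed in its A3B effect between lung and liver in the interaction fit (-3.21, limma adjusted p = 0.0454), which takes the same variance for both tissues. Napsa lay lower in all A3B lungs (difference -0.11) and higher in all A3B livers of the same table (0.77), and the interaction fit of this difference gave a limma adjusted p of 0.135.

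In groups of 6 A3B samples, the highest sample of a member stood apart from the rest in 6 of 20 groups examined. For normally distributed values chance does this in about 1 in 20 groups. Skewed TPM values near 0 need not follow that rate, and members of 1 sample are not independent. In pancreas these were mouse 153 for Sftpa1 (6.45 TPM), Sftpb (0.753 TPM) and Nkx2-1 (0.193 TPM) and mouse 49 for Lpcat1 (13.9 TPM). In the kallisto livers they were mouse 44 for Sftpd (5.61 TPM) and for Slc34a2 (26.9 TPM).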

How the results depend on the processing

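The median member change in lung, 0.06, shifted under the 14 alternatives by less than the SD of the member mean within a lung group (0.0889), and ran from -0.01 to 0.12. Of 45 list genes named as called in lung, 12 kept their call under all alternatives run, 32 lost it in the fit over lung and liver and 19 without at least 1 lung, and none changed sign. Adjusted p reached 0.125 for Col4a3, 0.171 for Krt79, 0.238 for Abca1 and 0.758 for Lgals3, which lost their calls most often. The members called in lung, 1 as reported, became 2 of 10 with quantile normalization (Sftpc and Slc34a2), beside 35.4% of all genes. They became 2 of 10 with median ratio scaling (Abca3 and Slc34a2), beside 36.3% of all genes. They were 0 in a fit over lung and liver (7.39% of all genes) and 0 to 3 when 1 lung was left out (21.9% to 33.7% of all genes). Lung genes called were 1009 in the fit over lung and liver and 2998 to 4579 without 1 lung. For the livers of the TPM table, 54 genes and 0 members were called with no filter on low values, and 1 to 1562 genes were called without 1 liver, the 1 gene being without control 91. Member calls behind the filter are not used here, since the member called, Sftpa1, passed it only through the A3B livers. For the difference between lung and liver, 2607 genes were called with the replicate block, and 571 to 3072 genes and 0 to 2 members without 1 sample. In pancreas, library totals gave 13683 genes (71.6%) and 6 of 9 members, and leaving out 1 sample gave 3829 to 5820 genes and 1 to 3 members. In the kallisto livers, DESeq2 gave 2420 genes (11.9%) and 2 of 9 members, library totals gave 1120 genes, and leaving out 1 sample gave 73 to 1599 genes and 0 to 1 members. The causes were not tested.

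Signs that turned belong to genes that had not been called. When 1 lung was left out, the difference of Nkx2-1 ran from -0.046 to 0.087 (negative without A3B 69), that of Lpcat1 from -0.12 to 0.087 (positive without A3B 70 or control 88), that of Myh6 from -0.031 to 0.58 and that of Alb from -0.41 to 3.35. With median ratio scaling Lpcat1 was at 0.015. In pancreas, leaving out 1 sample moved Sftpa1 from -1.23 to 0.36, Sftpb from -3.07 to 2.48 (positive without control 45) and Lpcat1 from -0.14 to 0.69 (negative without control 45). Library totals gave 2.24 for Sftpa1 and 1.42 for Sftpb. Sftpc stood at -0.28 without pancreases 53 and 153, an alternative chosen after seeing the data.

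With 3 lungs per group and 2 controls in the kallisto set, the number of animals limits precision, and TPM alone gives no counting error for the lungs. Where 1 control is left, its spread is taken to be that of the A3B group.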
